A study of Homo sapiens with 6 samples.

Results

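The genes of MHC class I antigen presentation were followed in MOLT-4, a line grown from a T-cell acute lymphoblastic leukemia (T-ALL) of human origin, with and without targeting of IKZF1. The 9 genes were chosen by name: the heavy chains HLA-B, HLA-C, HLA-E and HLA-F, the light chain B2M, the peptide loading genes TAP1, TAP2 and TAPBP, and the transactivator NLRC5. Each was found on a single row of the expression tables, which hold 60640 gene identifiers, and 7 of the 9 lie on chromosome 6. The members were picked with earlier results of these data known, HLA-B among them.

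The polyadenylated RNA of 6 libraries was sequenced. The 3 wild type libraries come from MOLT-4 control cells of the CRISPR knockout, and the 3 IK-KO libraries come from MOLT-4 cells after CRISPR-Cas targeting of IKZF1, which encodes IKAROS. Both were grown in RPMI1640 with 10% FBS, and no other treatment is given. The study's methods state that the edited line and its control were purchased. The labels name no clone, so differences between the 2 lines other than the edit cannot be told apart from the targeting itself. Nothing says whether replicates are separate cultures, so p-values measure only the spread between these libraries.

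Class I molecules display peptides from the inside of the cell to CD8 T cells and are read by NK cells. A polymorphic heavy chain pairs with the light chain B2M in the endoplasmic reticulum. The proteasome cuts the peptides, the TAP1-TAP2 transporter carries them across the membrane, and tapasin (TAPBP) holds the empty molecule at the transporter until a peptide binds. NLRC5 is carried to class I promoters by the RFX, CREB and NF-Y factors, and raises the transcription of heavy chains, B2M, TAP1 and immunoproteasome genes. IKAROS is a zinc finger DNA-binding protein of lymphoid cells.

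Each library is a table of gene levels in FPKM, which are fragments scaled by transcript length and by all mapped fragments, and each level has confidence bounds below and above it. No counts are given, so the precision of a value is judged from these bounds, and depth itself cannot be read. The values summed to between 699352 and 738051 FPKM per library. The T-ALL and thymocyte markers were present, CD3D, CD3E and LCK among them, and summed to between 1375 and 1439 FPKM over the 12 markers in wild type and between 1636 and 1831 FPKM in IK-KO. Of these 12, 5 rose and 5 fell by the test described next, the latter being CD7, CD5, CD4, CD8A and RAG1, and the part of this shift in the results was not tested. CD4 stood at 0.479 FPKM or less in all 3 IK-KO libraries. The lists of B cell (6 genes), myeloid (6) and erythroid (5) markers each summed to at most 3.62 FPKM in any library, with HBB and ALAS2 at 0. The 5 NK cell markers summed to between 3.14 and 4.90 FPKM in wild type and between 1.52 and 5.01 FPKM in IK-KO, nearly all of it NKG7, with NCR1 at 0. The 6 fibroblast and epithelial markers summed to at most 2.12 FPKM, with COL1A2, COL3A1 and EPCAM at 0. IKZF1 itself stood at 134, 124 and 105 FPKM in wild type against 207, 260 and 207 FPKM in IK-KO (0.89 on the log2 scale, SE 0.12, adjusted p 0.00295 by limma). The RNA of the targeted gene was thus higher and not lower, so it cannot serve as a check of the labels. The study's methods name PCR and western blot as its checks of the knockout, which these libraries cannot show. IK-KO means here the libraries labelled so. In bulk RNA, a change in the share of cells that express a gene and a change in its RNA per cell cannot be told apart.

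Changes were tested on log2(FPKM + 1), IK-KO minus wild type, with limma over the 12652 genes with a mean of at least 1 FPKM, and a gene was called when its adjusted p was under 0.05. HLA-F did not pass this filter. Of the 8 members tested, 3 were called: HLA-B and NLRC5 lower, and TAPBP higher. Over all tested genes 19.9% were called, with 10.1% higher and 9.75% lower. Their median log2 change was 0.02, and that of the 8 members was also 0.02, with 4 changes above 0 and 4 below. In 5 of the 8 members the libraries of the 2 groups did not overlap, whereas this held for 39% of all tested genes. Only in HLA-B did the confidence bounds of the groups stay apart too, as they did in 9.33% of the tested genes.

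**Figure D1:**
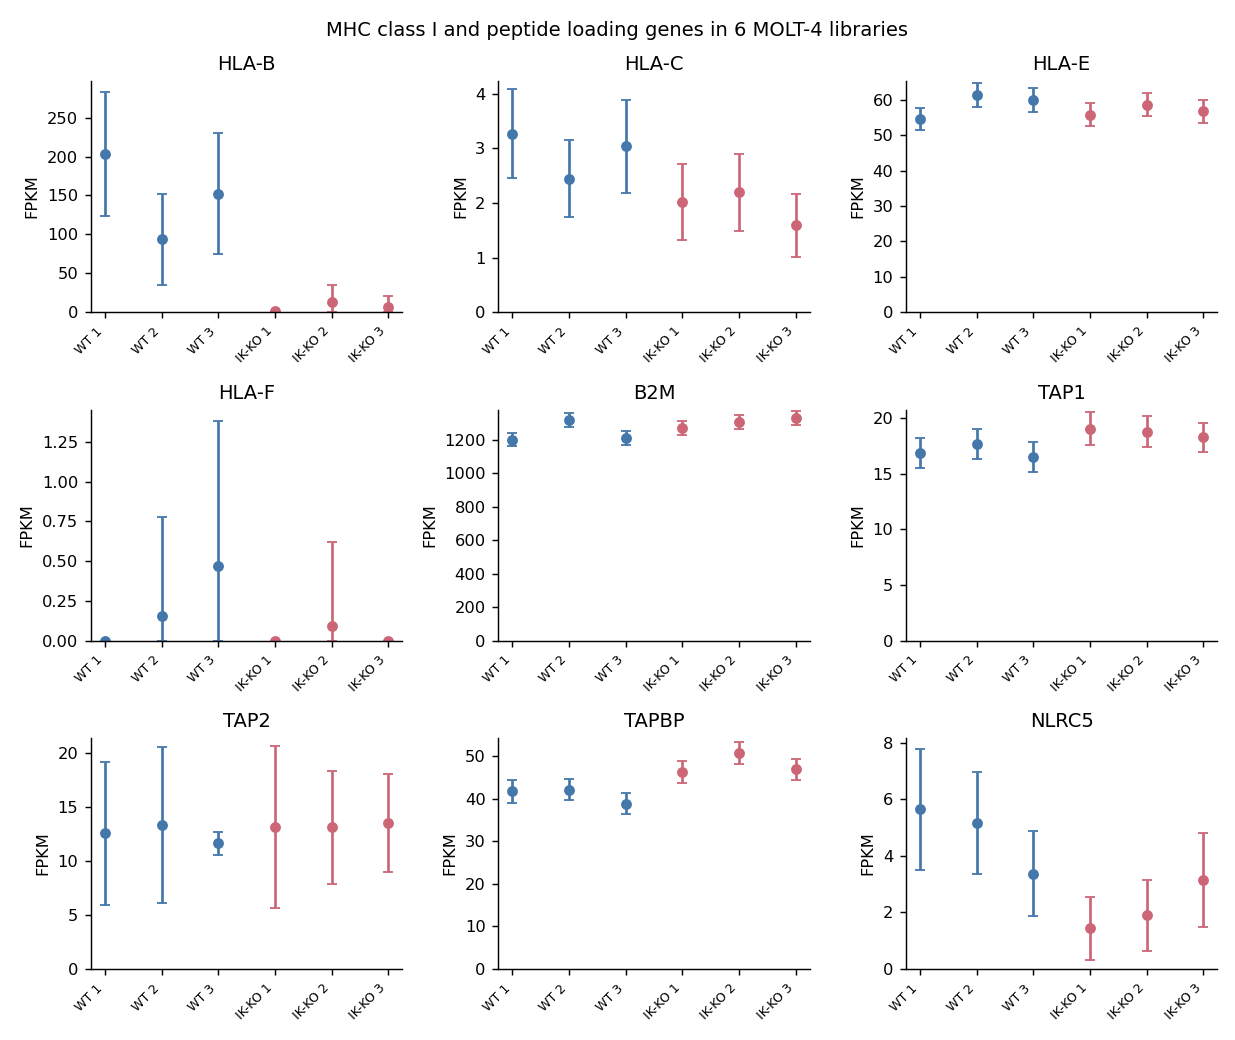
FPKM (vertical axes, linear, from 0) of the 9 genes in each of the 3 wild type (blue) and 3 IK-KO (red) libraries; points are the listed values and bars the lower and upper confidence bounds of each library. HLA-B lies between 93.7 and 203 FPKM in wild type and at most at 12.8 FPKM in IK-KO, and B2M lies between 1201 and 1328 FPKM in all 6 libraries.

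HLA-B, a classical heavy chain that presents peptides to CD8 T cells, showed by far the largest difference of the 9. It stood at 203, 93.7 and 152 FPKM in wild type against 0.796, 12.8 and 6.05 FPKM in IK-KO replicates 1 to 3. Every wild type library lay above every IK-KO library, the nearest pair being 93.7 and 12.8 FPKM, yet the libraries of each group also differed widely among themselves.

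The mean fell from 150 ± 54.6 to 6.56 ± 6.03 FPKM (SD, n = 3), or −4.68 on the log2 scale (SE 0.69, adjusted p 0.00435 by limma), and the ratio of the means was 22.8. The call held in all 14 alternatives, at changes from −5.33 to −3.86. The confidence bounds show how uncertain each value is: 123 to 283, 35.3 to 152 and 74.5 to 230 FPKM in wild type, and 0 to 1.84, 0 to 34.3 and 0 to 21.1 FPKM in IK-KO. The lowest wild type bound and the highest IK-KO bound were thus almost touching, and no IK-KO value can be told from 0.

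The HLA-B row (ENSG00000234745.11) has an unusual extent. In the tables it spans chr6:31269491-31357188 on GRCh38, 87698 bases, and overlaps 2640 of the 3382 bases listed for HLA-C. GENCODE release 44 gives HLA-B as a protein-coding gene on the minus strand at chr6:31353872-31367067, which does not touch HLA-C. The 8 other rows overlapped by the HLA-B interval were low: 6 stayed under 1 FPKM in every library, and the exceptions were HLA-C and RPL3P2, a pseudogene that reached 1.71 FPKM. How fragments were divided between HLA-B and its neighbours in this estimation is not known. Among the canonical class I transcripts of GENCODE release 44, 2.22% of the 50-base words of HLA-B also occur in HLA-C, HLA-E, HLA-F, HLA-G or B2M, and 0 of its 1437 words of 100 bases do. Those are reference alleles, and class I pseudogenes and other class I loci were not compared. HLA-B is among the most polymorphic human genes, and the alleles of MOLT-4 were not read here, so the fit of its fragments to the reference is not known.

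HLA-C, the second classical heavy chain and a main ligand of the killer-cell receptors of NK cells, was low in all libraries. It stood at 3.27, 2.45 and 3.04 FPKM in wild type against 2.02, 2.2 and 1.59 FPKM in IK-KO. The groups did not overlap, but the confidence bounds did, and the difference of −0.42 on the log2 scale (SE 0.15) missed the threshold (adjusted p 0.0993 by limma).

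The 250 bases before the RefSeq start are printed for HLA-B, which fell, and for HLA-C, its closest relative. Those of B2M, which was not called, stand beside them. By the extents of GENCODE release 44, the HLA-B window lies inside the gene, and the HLA-C and B2M windows overlap their genes in part. All are read 5′ to 3′ on the gene's strand from RefSeq on GRCh38.p14, at chr6:31357180-31357429 (minus strand), chr6:31272093-31272342 (minus strand) and chr15:44711267-44711516 (plus strand). Capitals mark matches, on either strand, to TGGGAA (the core recognized by IKAROS), an interferon-response element, an NF-kappaB site, TGACG (the X2 box core) and CCAAT (the Y box, bound by NF-Y).
HLA-B: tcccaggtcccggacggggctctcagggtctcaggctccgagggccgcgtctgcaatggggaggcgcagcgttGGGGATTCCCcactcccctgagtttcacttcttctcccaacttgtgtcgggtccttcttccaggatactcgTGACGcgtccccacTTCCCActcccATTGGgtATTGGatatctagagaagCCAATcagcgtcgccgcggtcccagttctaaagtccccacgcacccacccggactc
HLA-C: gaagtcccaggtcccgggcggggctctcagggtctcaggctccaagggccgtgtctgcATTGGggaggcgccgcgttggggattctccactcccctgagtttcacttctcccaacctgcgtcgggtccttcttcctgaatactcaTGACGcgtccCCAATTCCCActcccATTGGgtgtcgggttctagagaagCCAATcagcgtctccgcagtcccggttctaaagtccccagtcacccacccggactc
B2M: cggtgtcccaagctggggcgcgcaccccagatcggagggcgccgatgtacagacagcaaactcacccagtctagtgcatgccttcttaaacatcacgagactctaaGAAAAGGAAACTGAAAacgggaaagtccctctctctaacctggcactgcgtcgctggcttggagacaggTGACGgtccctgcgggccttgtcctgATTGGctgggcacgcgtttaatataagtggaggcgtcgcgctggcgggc

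The windows of HLA-B and HLA-C were 91.9% identical over 246 aligned bases. Each holds an X2 core, at base −106 before the start in HLA-B and −105 in HLA-C, and an IKAROS core on the opposite strand at −92 and −91, which in HLA-C shares a base with a Y box match. The NF-kappaB letters at −177 were found in HLA-B and not in HLA-C. The B2M window holds an X2 core at −75, a Y box at −49 and overlapping interferon-response matches, and no IKAROS core. Of all 35116 RefSeq windows of this length, 20.8% hold the IKAROS core, 21.2% the X2 core, 32.0% the Y box, 3.02% the interferon-response letters and 0.0683% the NF-kappaB letters. The table holds 8 windows for 7 of the 9 genes (HLA-E and NLRC5 have none), and 4 of the 8 hold the IKAROS core: those of HLA-B, HLA-C and HLA-F and one of the pair for TAP1. A match describes letters, not binding.

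HLA-E, a nonclassical heavy chain that presents leader peptides of other class I chains to NK cell receptors, differed little between the groups. Its values were 54.4, 61.2 and 59.9 FPKM in wild type and 55.8, 58.6 and 56.7 FPKM in IK-KO. The IK-KO libraries all lay inside the wild type range, and the difference of −0.03 on the log2 scale (SE 0.06) missed the threshold (adjusted p 0.737 by limma). HLA-F, a nonclassical chain found mainly inside cells, stood at 0, 0.152 and 0.469 FPKM in wild type against 0, 0.0897 and 0 FPKM in IK-KO. Every lower bound was 0, so no HLA-F value could be told from 0 in either group.

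The levels of the heavy chains among the 9 genes were next compared within each library. In wild type the order by FPKM was HLA-B, HLA-E, HLA-C and HLA-F in each library. In IK-KO it was HLA-E, HLA-B, HLA-C and HLA-F in replicates 2 and 3, whereas in replicate 1 HLA-C lay above HLA-B. Of the summed FPKM of HLA-B, HLA-C, HLA-E, HLA-F and HLA-G, another nonclassical chain, HLA-B held between 59.5% and 77.9% in wild type and between 1.36% and 17.4% in IK-KO. The share of HLA-E was between 20.9% and 38.8% in wild type and between 79.5% and 95.2% in IK-KO. These shares cover the 5 named genes and not every class I heavy chain.

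**Figure D2:**
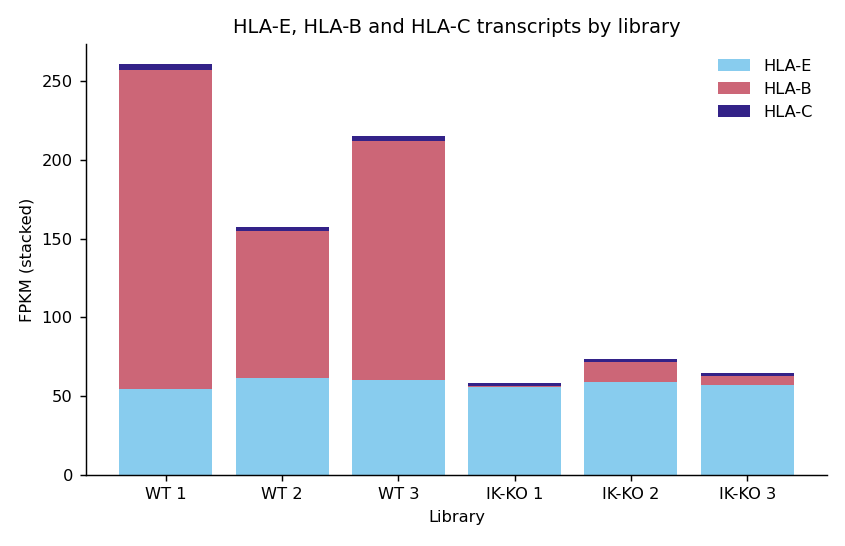
Stacked FPKM (vertical axis) of HLA-E, HLA-B and HLA-C in each of the 6 libraries (horizontal axis; WT, wild type). HLA-B makes up most of each wild type bar and HLA-E, at between 54.4 and 61.2 FPKM in all libraries, most of each IK-KO bar.

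A sum over these rows depends less on how fragments were divided between them. The 5 genes summed to 261, 158 and 216 FPKM in wild type and to 58.6, 73.8 and 64.4 FPKM in IK-KO. The groups did not overlap, and the mean fell from 211 ± 51.6 to 65.6 ± 7.64 FPKM (SD, n = 3), or −1.66 as a log2 difference (two-sided exact permutation p 0.1, the smallest that 3 against 3 libraries allow). The difference rested on the HLA-B row. Without it the sums were 57.7, 63.9 and 63.5 FPKM in wild type and 57.8, 60.9 and 58.3 FPKM in IK-KO, with overlapping groups (log2 difference −0.06, exact permutation p 0.4).

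B2M, the light chain shared by all class I molecules, was the most abundant of the 9. It stood at 1201, 1317 and 1210 FPKM in wild type against 1268, 1304 and 1328 FPKM in IK-KO. The groups overlapped, and the difference of 0.07 on the log2 scale (SE 0.05) missed the threshold (adjusted p 0.399 by limma). With confidence bounds within 3.38% of each value, B2M was also the most precisely measured. B2M lies on chromosome 15 at 44711487 to 44718877. Its nearest tested protein-coding genes, SPG11 (log2 change −0.15) and TRIM69 (0.18), were not called either (limma adjusted p 0.350 and 0.427).

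TAP1 and TAP2 lie close together on chromosome 6, among the class II genes, and TAPBP lies apart from them at 33299694 to 33314387. TAP1, a subunit of the peptide transporter, stood at 16.9, 17.7 and 16.5 FPKM in wild type against 19.1, 18.8 and 18.3 FPKM in IK-KO. The groups did not overlap, but the difference was small, at 0.13 on the log2 scale (SE 0.06), and was not called (adjusted p 0.201 by limma). TAP2, the partner subunit, stood at 12.6, 13.4 and 11.6 FPKM in wild type against 13.2, 13.1 and 13.6 FPKM in IK-KO. These groups overlapped (log2 change 0.08, SE 0.08, adjusted p 0.507 by limma), and the TAP2 bounds reached 56.8% of the value.

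TAPBP, which encodes tapasin, stood at 41.7, 42.2 and 38.8 FPKM in wild type against 46.3, 50.7 and 46.9 FPKM in IK-KO. All IK-KO libraries lay above all wild type libraries, and TAPBP was called at the edge of the threshold, from 40.9 ± 1.81 to 48.0 ± 2.41 FPKM (SD, n = 3), with a log2 change of 0.23 (SE 0.06, adjusted p 0.0432 by limma). The call was lost without any 1 of the 6 libraries, at adjusted p from 0.0743 to 0.121, and with its neighbours' change removed it became −0.01 on the log2 scale.

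NLRC5, the class I transactivator, was low. It stood at 5.65, 5.16 and 3.37 FPKM in wild type against 1.43, 1.91 and 3.14 FPKM in IK-KO. Wild type replicate 3 and IK-KO replicate 3 almost met, and the confidence bounds of the groups overlapped, with bounds of between 35.2% and 77.1% of the value. The mean fell from 4.73 ± 1.20 to 2.16 ± 0.880 FPKM (SD, n = 3), or −0.87 on the log2 scale (SE 0.24, adjusted p 0.0451 by limma). The direction held in every alternative, but 7 of the 13 did not call it, at adjusted p up to 0.149; the call was lost without wild type replicate 1 or 2 and without IK-KO replicate 1 or 2 (adjusted p from 0.123 to 0.137). NLRC5 lies on chromosome 16 at 56989485 to 57083531. The nearest tested protein-coding genes were HERPUD1 (log2 change 0.23) and CPNE2 (−0.53), neither of them called (limma adjusted p 0.0689 and 0.131).

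Since 6 of the 8 tested members lie on chromosome 6, they were set beside the genes around them. Chromosome 6 was shifted upward as a whole. Its 649 tested genes other than the members had a median log2 change of 0.21, 35.6% of them were called and 29.7% were called higher. Within 5 Mb on either side of the listed HLA-B start, 152 of 181 such genes had a change above 0, with a median of 0.28, 70 called higher and 8 called lower. The 40 tested genes nearest to HLA-B other than the members, 20 on each side within 1.13 Mb, all had a change above that of HLA-B. For HLA-C this held for 37 of the 40 and for HLA-E for 38 of its 40. Of the 40 genes around HLA-B, 17 were called higher and 4 lower, among the latter LST1 (−1.12), LTB (−0.72) and MICB (−0.52). HLA-C, whose row overlaps that of HLA-B, is a member and was left out of this search (log2 change −0.42, not called). The nearest tested protein-coding genes other than the members were TCF19, at 0.20 on the log2 scale, and the class I-like gene MICA, at 0.05 (limma adjusted p 0.0530 and 0.865).

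**Figure D3:**
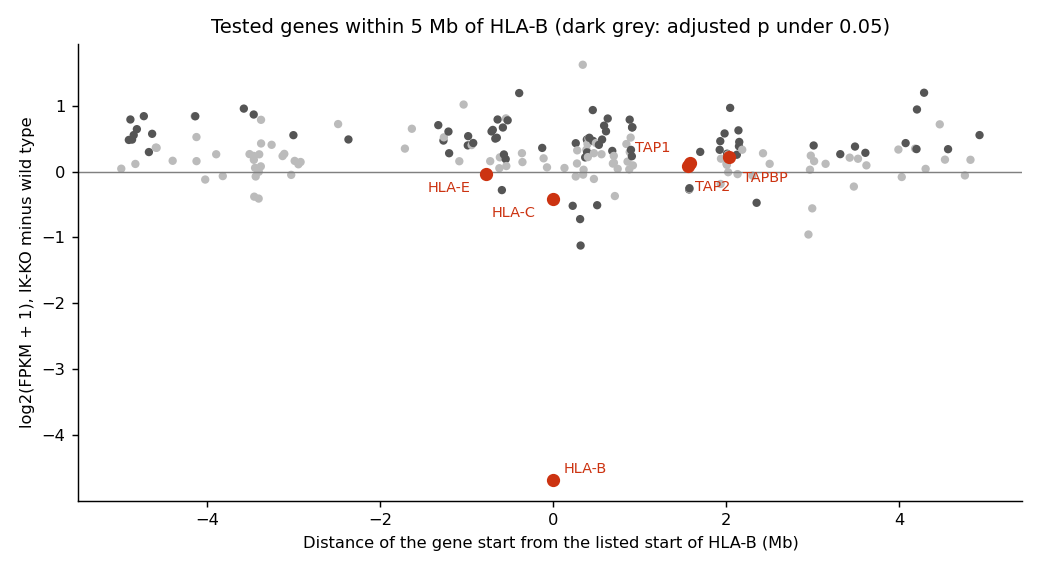
Log2 change (vertical axis, log2(FPKM + 1), IK-KO minus wild type) of the tested genes within 5 Mb of HLA-B against the distance of their start from its listed start (horizontal axis, Mb); members are red and called genes dark grey. Most points lie above 0, with a median of 0.28, and HLA-B at −4.68 lies far below every other gene.

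With the neighbours' change removed library by library, 4 of the 8 members were called, all of them lower and none higher. In that fit 18.1% of all tested genes were called, 9.27% lower and 8.84% higher. HLA-B stood at −4.96 (SE 0.70, adjusted p 0.00421 by limma) and NLRC5 at −0.83 (SE 0.23, adjusted p 0.0479) on the log2 scale. HLA-C reached −0.70 (SE 0.16, adjusted p 0.0231) and HLA-E −0.39 (SE 0.06, adjusted p 0.00408), both uncalled before the removal. These 2 genes were thus lower relative to the genes around them, and HLA-E did not differ beyond its spread in FPKM. TAP1 (−0.12), TAP2 (−0.18) and TAPBP (−0.01) turned to the negative side and were not called, and B2M stood at −0.01.

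**Figure D4:**
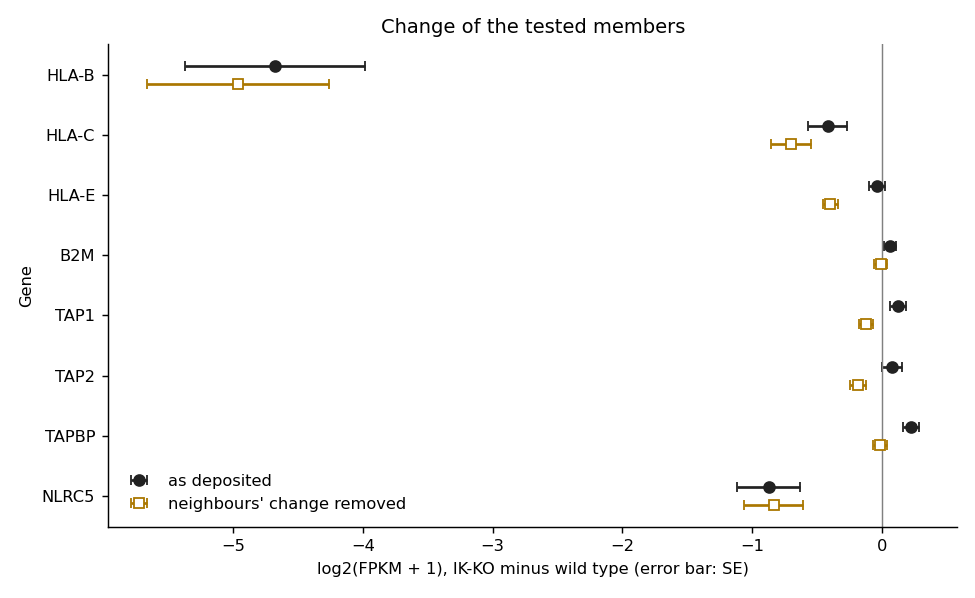
Log2 change (horizontal axis, log2(FPKM + 1), IK-KO minus wild type; bars, SE) of the 8 tested members as deposited (black) and with the change of their neighbours removed (open squares). HLA-B at −4.68 and NLRC5 at −0.87 keep their place, whereas HLA-E moves from −0.03 to −0.39 and TAPBP from 0.23 to −0.01.

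The other genes of the pathway were read from lists chosen by function. They hold 64 genes, of which 38 were tested, and 14 of the 38 (36.8%) were called, 6 higher and 8 lower, beside 19.9% of all tested genes. That share is also the background for the counts of each list. Their median log2 change was 0.06.

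Of the 5 immunoproteasome and activator genes, 3 fell and 2 were not called. PSMB8, PSMB9 and PSMB10 encode the catalytic subunits that replace their constitutive counterparts and favor peptides fit for class I. PSMB10, on chromosome 16, stood at 59.6, 63.8 and 65.2 FPKM in wild type against 51.3, 52.5 and 49.5 FPKM in IK-KO, a difference of −0.29 on the log2 scale (SE 0.06, adjusted p 0.0112 by limma) that was called in all 14 alternatives. PSMB8 stood at 79.8, 78.1 and 81.9 FPKM in wild type against 62.9, 65.5 and 69.8 FPKM in IK-KO. PSMB9 stood at 58.9, 57.7 and 57.6 FPKM in wild type against 51.4, 44.8 and 49.8 FPKM in IK-KO. In each of the 3 genes every IK-KO library lay below every wild type library.

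PSMB8 and PSMB9 lie beside TAP1 and TAP2 on chromosome 6, and their changes of −0.27 and −0.25 on the log2 scale (limma adjusted p 0.0146 and 0.0308) ran against the upward shift around them. With the neighbours' change removed they became −0.55 and −0.51. PSMB8 lost its call without IK-KO replicate 1 or 2 (adjusted p 0.0504 and 0.0506), and PSMB9 in 8 of its 14 alternatives, at adjusted p up to 0.0918; it kept its call in only 1 of the 6 fits without a library, that without IK-KO replicate 1. PSME1 and PSME2, the subunits of the PA28 activator, changed by 0.11 each and were not called. Of the 3 constitutive catalytic subunits, PSMB7 on chromosome 9 was called lower (log2 change −0.23) and stood at 0.12 with its neighbours' change removed, uncalled, and PSMB5 and PSMB6 were not called.

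Among 10 loading chaperones and trimming enzymes, 4 rose, 2 fell and 4 were not called. ERAP2, an aminopeptidase that trims peptides in the endoplasmic reticulum, stood at 39.2, 39.6 and 35.7 FPKM in wild type against 18.3, 18.2 and 21.0 FPKM in IK-KO. It changed most in this list, by −0.96 on the log2 scale (SE 0.08, adjusted p 0.000387 by limma), with its call kept in all 14 alternatives. ERAP1, its neighbour and relative, had a change of −0.35 that was not called (adjusted p 0.0647). CANX, the chaperone calnexin that holds newly made heavy chains, rose from 163 ± 7.37 to 237 ± 5.25 FPKM (SD, n = 3; log2 change 0.54). The thiol isomerase PDIA3 of the loading complex and the translocon subunit SEC61A1 rose by 0.35 and 0.33, and both of these and CANX were called in all 14 alternatives. SPPL3, an intramembrane protease, was called higher at 0.58 and HSPA5, a chaperone of the endoplasmic reticulum, lower at −0.20. SPPL3 lost its call in 5 of the 14 alternatives (4 of them without a library) and HSPA5 in 9, among them the removal of its neighbours' change, under which it took the opposite sign (0.12). CALR, the chaperone calreticulin, and TAPBPL, a relative of tapasin, had changes of 0.04 and 0.01.

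**Figure D5:**
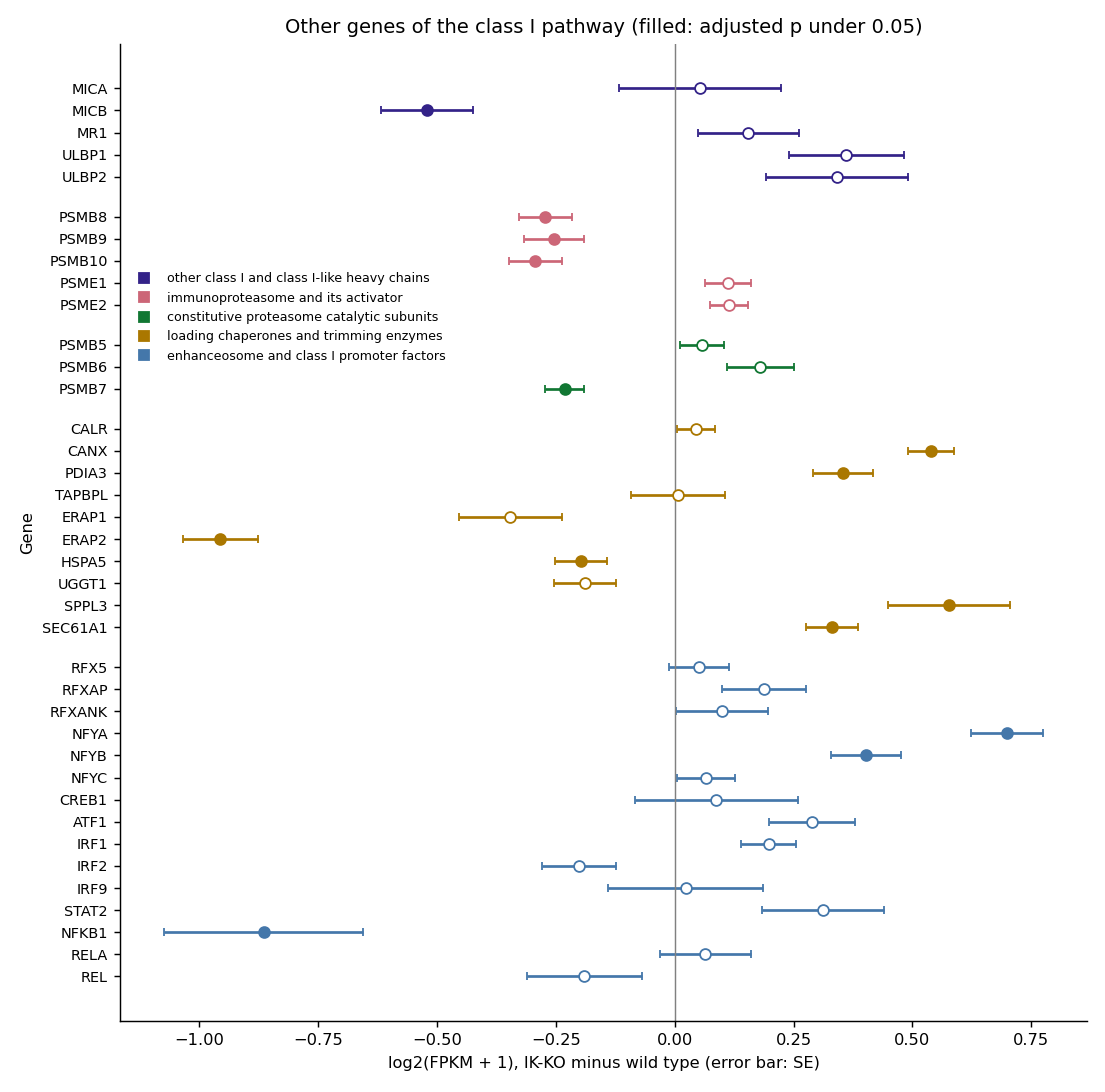
Log2 change (horizontal axis, log2(FPKM + 1), IK-KO minus wild type; bars, SE) of the 38 tested genes of the pathway lists, colored by list, with filled points for an adjusted p under 0.05. The 3 immunoproteasome subunits lie from −0.29 to −0.25, NFYA at 0.70 and ERAP2 at −0.96.

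Of the 15 enhanceosome and class I promoter factors, 2 rose, 1 fell and 12 were not called. NFYA and NFYB, subunits of the factor that binds the Y box, rose by 0.70 and 0.40 on the log2 scale, and both calls held in all 14 alternatives. NFYA stood at 42.1, 41.9 and 37.1 FPKM in wild type against 71.0, 62.0 and 65.5 FPKM in IK-KO, with no overlap between groups. It lies on chromosome 6, and with its neighbours' change of 0.18 removed its log2 change was 0.52 (SE 0.07, adjusted p 0.00286 by limma). NFKB1, whose product is the p50 subunit of NF-kappaB, fell from 2.74 ± 0.332 to 1.09 ± 0.538 FPKM (SD, n = 3; log2 change −0.86, adjusted p 0.0276 by limma), but it was uncalled in 6 of its 13 alternatives, among them 5 of the 6 fits without a library (all but that without IK-KO replicate 3). RFX5, RFXAP and RFXANK, which carry NLRC5 to promoters, were not called, at 0.05, 0.19 and 0.10. IRF1, an interferon-linked factor, was not called either, at 0.20 (adjusted p 0.0530 by limma).

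Among the 9 other class I and class I-like heavy chains of the lists, 5 were tested, 1 fell and 4 were not called. MICB, a stress-induced ligand of the NK cell receptor NKG2D that lies near HLA-B, stood at 11.1, 11.4 and 10.6 FPKM in wild type against 6.51, 8.06 and 7.63 FPKM in IK-KO. It fell by 0.52 on the log2 scale (SE 0.10, adjusted p 0.00992 by limma), in all 14 alternatives. Its relative MICA stood between 0.943 and 1.41 FPKM and was not called. The 9 class I pseudogenes all had a mean under 1 FPKM. Class II genes, which antigen-presenting cells use, were likewise below the filter: all 13 genes of the list, among them their transactivator CIITA, had a mean under 1 FPKM and summed to at most 2.52 FPKM in any library.

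The genes whose log2(FPKM + 1) followed HLA-B most closely over the 6 libraries were RUNX3, MARCHF9, APOBEC3D, C8orf88 and CTDNEP1, with a Pearson r from 0.996 to 0.999. All 5 had lower FPKM in each IK-KO library than in each wild type library, and 4 of them were called lower. Over all tested genes the groups did not overlap in 39%, and 9.75% were called lower. Since the 5 were chosen for following HLA-B, their direction was set by the choice and is no separate result. RUNX3, the least abundant at 1.78, 1.55 and 1.69 against 0.798, 1.17 and 1.07 FPKM, was not called (adjusted p 0.108 by limma). Among those closest to B2M were ANO10, MAP4K3-DT, TM9SF3 and RCC1, with r from 0.983 to 0.999, and none of them was called. With 6 libraries and 12652 genes searched, these r describe the libraries only, since they share the group difference and the depth of each library.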

How the data were processed

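Polyadenylated RNA of MOLT-4 was analysed in 3 wild type and 3 IK-KO libraries, grouped by their titles. The authors deposited 1 gene table per library in Cufflinks layout, with FPKM scaled by the authors for transcript length and mapped fragments. The submitters' processing notes name STAR 2.6.1c, Cufflinks 2.2.1, HOMER 4.10 and hg38 without their roles. The annotation and strand setting are not given in the sources used here, so overlapping and near-identical genes are uncertain.

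Rows of 1 identifier were summed (110 had several), and 29 identifiers not estimated in some library were left out, none of them a listed gene. Genes with a mean of at least 1 FPKM were tested on log2(FPKM + 1), which understates changes of low genes, with limma 3.58.1 in R 4.3.3 (trended eBayes, two-sided, Benjamini-Hochberg over all tested genes). Neighbours are the 20 nearest tested genes other than the members on each side. Their median deviation was subtracted per library before refitting. Sums were compared by exact permutation (SciPy 1.17.1). The fit was checked on simulated data.

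All members are named. From the lists, the called gene with the largest change was named by rule. So were the 5 genes most like HLA-B and B2M and the nearest protein-coding genes other than the members. Other genes were named after their values were seen. Some genes of the planned lists, sum and searches are not reported here, and the sum and lists were recomputed without them. Members and lists were chosen with earlier results of these data known. The test of expression used by the study is not given in the sources used here. The 250-base windows come from RefSeq (GRCh38.p14), and gene extents and transcripts from GENCODE release 44.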

Additional observations from a re-analysis of the deposited data

How the results depend on the processing

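The fits were repeated under 14 alternatives, and the heavy chain sum without HLA-B was added after the data were seen. The count of called members, 3, was the most fragile: it was 1 without the filter on low values, 1 without the mean-variance trend, 1 with the replicate block and between 1 and 2 in the fits that each left out 1 library. HLA-B was called in each of these fits. Replicate numbers gave no pairing, since the deviations of libraries with one number correlated at 0.0669, 0.0248 and 0.00546 across genes. The count of called pathway genes lay between 10 and 15 and that of all called genes between 1692 and 2803, within 1.5 times of 14 and 2515. With the neighbours' change removed, the log2 changes of B2M (−0.0070), TAP1 (−0.12), TAP2 (−0.18) and TAPBP (−0.012) took the opposite sign. The log2 difference of the heavy chain sum, −1.66, lay between −1.86 and −1.50 in its other alternatives and shrank to −0.062 without HLA-B. HLA-C and NLRC5 have a mean under 5 FPKM, so the stricter filter gave no value for them, and HLA-F entered only the fit without a filter. The confidence bounds of HLA-F, HLA-C, NLRC5 and HLA-B are wide or reach 0, which limits what their values show. The part of depth in this was not tested.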
